A study of Homo sapiens with 14 samples.

Results

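SRGN encodes serglycin, the small core protein of the proteoglycan that fills the secretory granules of blood cells. It is 1 of 11963 genes that the platform annotation names with a single symbol. The array carried 2 probe sets whose only annotated symbol is SRGN, 201858_s_at and 201859_at, out of 22283 probe sets in all. Both passed the filter on low signals that left 13329 probe sets for testing. SRGN was chosen by its difference between AML1-ETO siRNA and luciferase siRNA in these same arrays, so the differences of AML1-ETO arrays from other arrays are given below as a description, without a test.

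Serglycin carries chains of chondroitin sulphate or heparin that are attached in the Golgi. The sulphate groups make the chains strongly acidic, and in granules they bind basic proteins such as proteases. In neutrophil precursors serglycin is known for packing elastase into azurophil granules, in mast cells for storing tryptase, chymase and carboxypeptidase, and in cytotoxic lymphocytes for holding granzymes.

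The cells were Kasumi-1, a single established line of acute myeloid leukaemia with the fusion gene AML1-ETO, which joins RUNX1 to RUNX1T1. Expression was measured at 96 h on 14 oligonucleotide arrays in 6 groups. AML1-ETO siRNA was given with siLentFect, a lipid reagent (3 arrays), or by electrical Amaxa nucleofection (3 arrays). The control siRNA against luciferase was given with lipid (3 arrays) or by nucleofection (2 arrays), and the rest were 1 nucleofection without siRNA and 2 arrays of untransfected cells. The siRNA was used at 240 nM with lipid and at 1.5 µM with nucleofection, so method and concentration cannot be told apart. No label says that replicates were grown separately, and every p-value below therefore rests on a spread that may be technical. The labels hold no replicate 3 of luciferase nucleofection and no replicate 2 of the untransfected cells, and all 14 arrays were used.

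RUNX1T1, whose transcript the siRNA targets as part of the fusion, had signals of 251 to 328 with AML1-ETO siRNA and 644 to 763 with luciferase siRNA by nucleofection. By lipid the ranges were 400 to 502 and 540 to 567. The ranges did not overlap within either method. As the mean of both methods it fell by 0.79 on the log2 scale (limma adjusted p = 0.00413, SE 0.12). The nucleofection difference was −1.24 (limma adjusted p = 0.00306) and the lipid difference −0.34 (limma adjusted p = 1.0). Transcripts of the fusion and of RUNX1T1 itself are read together by these probes. Of the markers of the line, KIT and MPO were bright in every group and CD34 was dim, with group geometric means between 37.1 and 74.9, while ANPEP, which encodes CD13, lay at the floor of 20 on all 14 arrays.

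On every AML1-ETO array SRGN was brighter than on any other array, for each probe set, and the luciferase nucleofection arrays were the dimmest. For 201858_s_at the signals with luciferase siRNA by nucleofection were 474 and 509. With AML1-ETO siRNA by nucleofection they were 4366, 3848 and 3652. The lowest AML1-ETO array was thus far above the highest luciferase array. In such bulk RNA a change in the share of cells that express a gene and a change in its RNA per cell cannot be told apart. By lipid the signals of 201858_s_at were 827, 1174 and 1221 with luciferase siRNA and 2397, 2369 and 2400.0 with AML1-ETO siRNA. The lipid groups did not overlap either, and the AML1-ETO lipid arrays lay close together, at 2389 ± 16.8 (SD, n = 3). Untransfected cells had signals of 1123 and 809.7, and the array without siRNA 746. The untransfected values fell within or just below the range of the luciferase lipid arrays.

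The other probe set gave a like picture at its own signal level. For 201859_at the luciferase signals by nucleofection were 278 and 444, and those with AML1-ETO siRNA were 1993, 2005 and 2395. By lipid the signals were 613, 849 and 683 with luciferase siRNA and 1162, 1119 and 1318 with AML1-ETO siRNA. Within each method all AML1-ETO arrays lay above all luciferase arrays. Untransfected cells had signals of 879.6 and 755.6 and the array without siRNA 543. A higher signal of one probe set than of the other does not measure more transcript, since probes differ in binding.

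**Figure D1:**
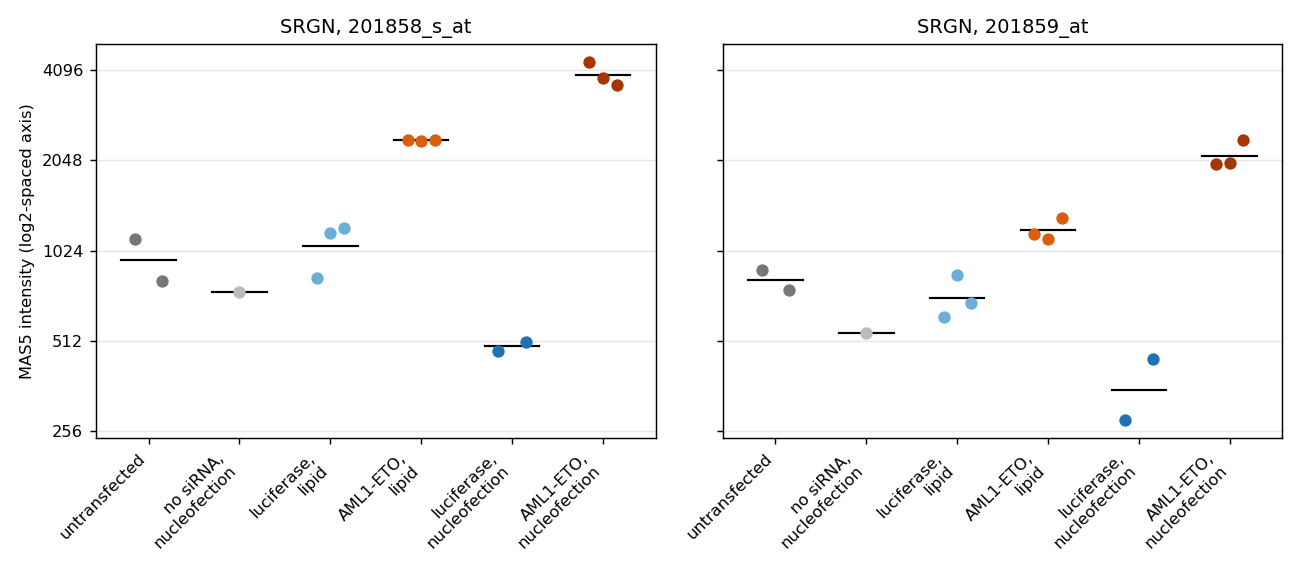
Deposited signal of each SRGN probe set on each of the 14 arrays, on a log axis, by group, with every array as a point and the group's geometric mean as a bar. AML1-ETO nucleofection arrays are highest, at 3652 to 4366 for 201858_s_at, AML1-ETO lipid arrays come next, and luciferase nucleofection arrays are lowest.

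In order of the geometric mean, 201858_s_at rose from luciferase by nucleofection at 491 to nucleofection without siRNA at 746, untransfected cells at 954, luciferase by lipid at 1058, AML1-ETO siRNA by lipid at 2389 and AML1-ETO siRNA by nucleofection at 3944. For 201859_at the order was 351, 543, 709 for luciferase by lipid, 815 for untransfected cells, 1197 and 2123, so luciferase by lipid and untransfected cells changed places. These were the only neighbours in either order whose arrays overlapped, with a step of 0.15 for 201858_s_at and 0.20 for 201859_at on the log2 scale. Within groups SRGN varied about as other genes did. The residual SD was 0.21 for 201858_s_at and 0.24 for 201859_at on the log2 scale, while the quartiles over all probe sets were 0.19 and 0.34.

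The difference that chose the gene was set against the spread of all 13329 probe sets. As the mean of both methods, 201858_s_at was 2.09 higher with AML1-ETO siRNA on the log2 scale (SE 0.14), which is 4.26-fold and placed it 6th from the top. For 201859_at the difference was 1.68 (SE 0.15), 3.20-fold and 15th from the top. Over all probe sets the median was −0.07, and the 1st and 99th percentiles were −0.60 and 0.66. In this comparison 1.24% of all probe sets passed the threshold of adjusted p below 0.05, 0.855% higher and 0.383% lower. With arrays centred on their medians these shares were 1.19% and 0.165%, and with quantile normalization 1.46% and 0.36%.

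By nucleofection 201858_s_at was 3.00 higher (SE 0.20), 8.03-fold and 4th from the top. For 201859_at it was 2.60 (SE 0.22), 6.05-fold and 15th. Over all probe sets the median was −0.10, the 1st and 99th percentiles were −0.93 and 1.07, and 2.1% were called, 1.29% as higher. Of the called probe sets 61.4% were higher there, against 84.0% with arrays centred on their medians. By lipid 201858_s_at was 1.17 higher (SE 0.18), 2.26-fold and 13th from the top, and 201859_at was 0.76 higher (SE 0.19), 1.69-fold and 68th. The lipid comparison had 0.0675% of all probe sets called, 0.06% as higher, and its 1st and 99th percentiles were −0.66 and 0.61. The lipid difference minus the nucleofection difference was −1.83 (SE 0.27) for 201858_s_at and −1.84 (SE 0.29) for 201859_at. Of all probe sets 0.0525% were called for that difference between methods. The 201859_at difference by nucleofection rests on 2 luciferase arrays that lay apart, and it was 2.26 without luciferase nucleofection replicate 1 and 2.93 without replicate 2.

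**Figure D2:**
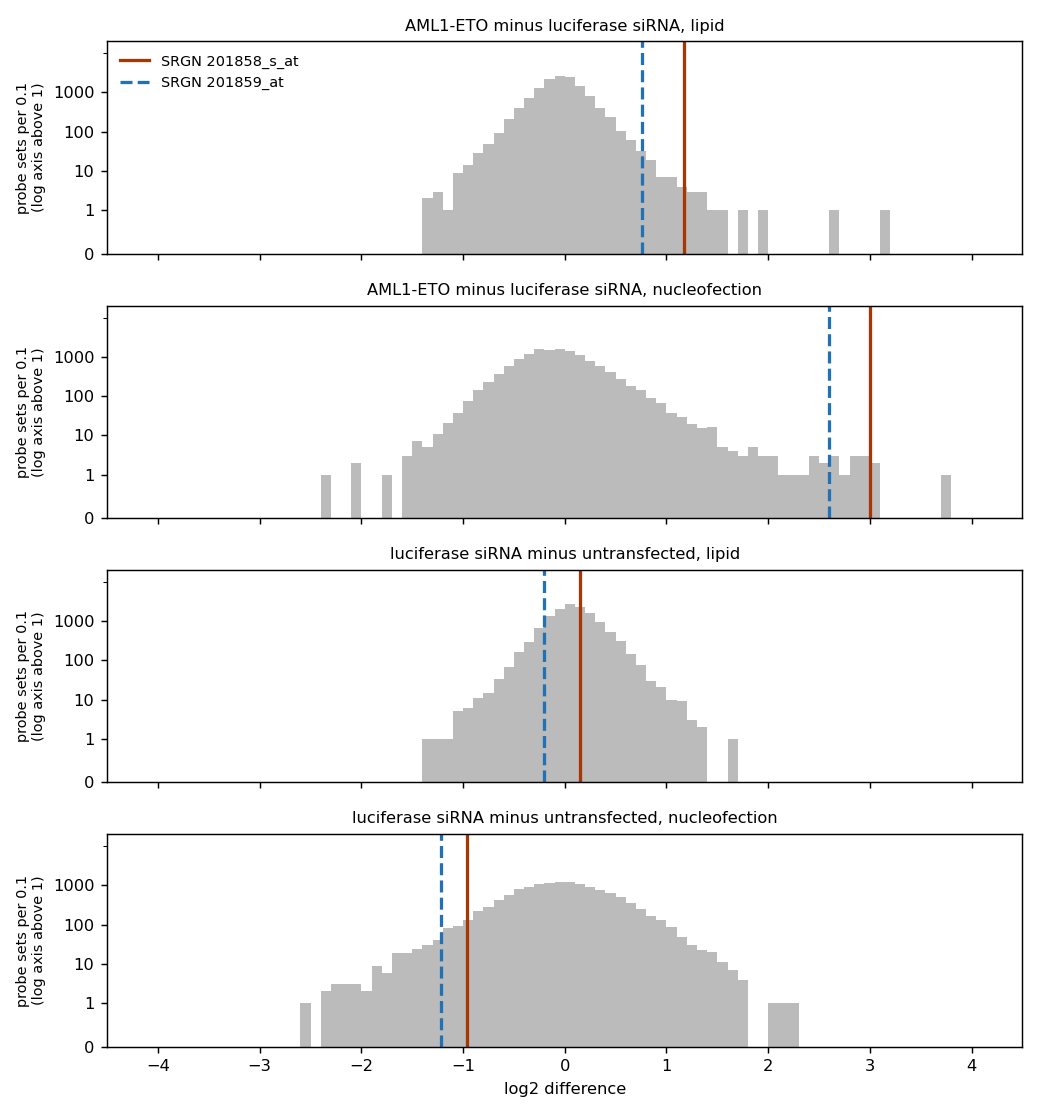
Distribution of log2 differences over all 13329 probe sets tested for 4 comparisons, as counts per bin of 0.1 on a log axis, with the SRGN probe sets marked. For AML1-ETO against luciferase siRNA both marks lie in the upper tail, and for luciferase nucleofection against untransfected cells both lie in the lower tail.

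Set against untransfected cells, the AML1-ETO arrays were also higher for each probe set, without overlap. By nucleofection the difference was 2.05 (SE 0.20) for 201858_s_at and 1.38 (SE 0.22) for 201859_at, where 6.26% of all probe sets were called. By lipid it was 1.32 (SE 0.20), 14th from the top, and 0.55 (SE 0.22), 467th from the top, where 0.0675% were called. The AML1-ETO arrays by lipid minus those by nucleofection were at −0.72 (SE 0.18) for 201858_s_at and −0.83 (SE 0.19) for 201859_at, again without overlap, where 10.3% were called.

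The comparisons among the control groups were not used to choose SRGN, but the luciferase arrays entered that choice as its controls, which favours genes that are low on them. The comparisons with luciferase arrays are therefore also given as a description, without a test of SRGN. With luciferase siRNA by nucleofection SRGN was lower than in untransfected cells, at −0.96 on the log2 scale for 201858_s_at (SE 0.22, n = 2 against 2) and at −1.22 for 201859_at (SE 0.24). These are 1.94-fold and 2.32-fold lower, and for each probe set both luciferase arrays lay below both untransfected arrays. In this comparison 4.88% of all probe sets were called, 3.19% lower and 1.69% higher, and SRGN stood 381st and 155th from the lowest. With arrays centred on their medians 9.09% were lower and 1.37% higher, and with only the compared arrays fitted limma called 0 probe sets at adjusted p below 0.05. The size of the SRGN differences depended on single arrays. For 201858_s_at it was −0.72 without untransfected replicate 1 and −1.19 without untransfected replicate 3, and for 201859_at −0.88 without luciferase nucleofection replicate 1 and −1.55 without replicate 2.

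With luciferase siRNA by lipid the difference from untransfected cells was 0.15 (SE 0.20) for 201858_s_at and −0.20 (SE 0.22) for 201859_at, and the arrays of the groups overlapped. For 201858_s_at its sign rested on 1 array, with −0.085 without untransfected replicate 3. Of all probe sets 0.0075%, a single one, was called there. Luciferase arrays by lipid were higher than those by nucleofection, by 1.11 for 201858_s_at (SE 0.20) and by 1.01 for 201859_at (SE 0.22), without overlap. There 8.45% of all probe sets were called, 6.46% higher and 1.99% lower, and with quantile normalization 3.83% were higher and 2.72% lower. Without luciferase nucleofection replicate 1 the 201859_at difference was 0.68.

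The single array nucleofected without siRNA was compared with untransfected cells on the spread pooled over all groups. None of these arrays entered the choice of the gene, so SRGN was tested here. SRGN was at −0.35 for 201858_s_at (SE 0.27, limma adjusted p = 0.536) and at −0.59 for 201859_at (SE 0.29, limma adjusted p = 0.317), and neither passed. Of all probe sets 1.78% were called, 1.41% lower and 0.368% higher, and with quantile normalization 1.02% were lower and 0.63% higher. The ratio of 3′ to 5′ GAPDH signal, a sign of RNA integrity, was highest on the luciferase nucleofection arrays, at 0.03 to 0.25 on the log2 scale, against −0.04 without siRNA, −0.21 to −0.19 in untransfected cells, −0.18 to −0.11 with AML1-ETO siRNA by nucleofection and at most −0.17 with lipid. The same ratio of ACTB did not set these arrays apart, at 0.38 and 0.84 on the luciferase nucleofection arrays and 0.50 and 0.66 in untransfected cells. Their part in the SRGN values was not tested.

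The SRGN probe sets were also compared with each other within each array, which is free of the array's scale. The log2 gap of 201858_s_at over 201859_at was 0.95 ± 0.19 (SD, n = 6) on AML1-ETO arrays and 0.54 ± 0.26 (SD, n = 5) on luciferase arrays. The gap was wider by 0.40 with AML1-ETO siRNA, and the ranges overlapped, since luciferase lipid replicate 3 was at 0.84 and AML1-ETO nucleofection replicate 3 at 0.61. The difference was 0.42 within lipid and 0.41 within nucleofection. It comes from the same contrast that chose the gene and is given without a test. The gap was 0.35 and 0.10 in untransfected cells and 0.46 without siRNA. The difference was thus larger for 201858_s_at, whose name marks probes that can bind related transcripts.

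A list of 22 genes of neutrophil granule contents was then described, whether or not each member is a partner of serglycin. Of these genes 19 were measured and 13 passed the filter. As the mean of both methods, 5 of these 13 rose, 0 fell and 8 did not pass. The median difference was 0.49 on the log2 scale, against −0.07 over all probe sets, of which 0.855% rose. The members that rose were the proteases CTSG and ELANE, the protease-like antimicrobial protein AZU1, the ribonuclease RNASE2 and CST7, an inhibitor of cysteine proteases. This list, like SRGN, was chosen with earlier results of these data known. Its counts and its members' p-values below are therefore not independent evidence of a rise.

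CTSG, which encodes cathepsin G, had signals of 419 and 423 with luciferase siRNA by nucleofection and 5903, 5550.0 and 5705 with AML1-ETO siRNA. The lipid arrays had 1225, 1265 and 1114 with luciferase siRNA and 3154, 2864 and 2982 with AML1-ETO siRNA. The groups did not overlap in either method, and CTSG rose by 2.54 as their mean (SE 0.12, limma adjusted p = 2.72e-07). Its rise by nucleofection was 3.76 (limma adjusted p = 3.21e-07) and by lipid 1.32 (limma adjusted p = 0.00637). CTSG was the only member of this list called for the difference between methods, with lipid minus nucleofection at −2.44 (SE 0.24, limma adjusted p = 0.00239).

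CST7 was dim, with signals of 20.5 and 8.71 with luciferase siRNA by nucleofection and 144, 167 and 154 with AML1-ETO siRNA. The lipid arrays had 55.9, 39.9 and 36.1 against 180.4, 133 and 176. Neither method showed overlap, and CST7 rose by 2.42 (SE 0.15, limma adjusted p = 2.11e-06), by 2.94 with nucleofection and 1.90 with lipid. The nucleofection figure is understated, because 1 luciferase array lay below the floor of 20. RNASE2 rose by 1.44 (SE 0.13, limma adjusted p = 4.5e-05), with geometric means of 334 and 1440.2 by nucleofection and 465 and 791 by lipid. AZU1 rose by 1.13 (SE 0.14, limma adjusted p = 0.000894) and ELANE, neutrophil elastase, by 0.56 (SE 0.12, limma adjusted p = 0.0467).

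AZU1 and ELANE were called by nucleofection alone (limma adjusted p = 0.00023 and 0.0148) and not by lipid alone (limma adjusted p = 1.0 for each), and for neither did the difference between methods pass (limma adjusted p = 0.062 and 0.251). AZU1 had geometric means of 270.0 and 1038 by nucleofection and 1224 and 1519 by lipid, and ELANE had 2719 and 5418 by nucleofection and 4572 and 4974 by lipid. In untransfected cells AZU1 was at 1412 and ELANE at 5449, so their nucleofection levels under AML1-ETO siRNA did not exceed those without transfection. SRGN, CTSG, RNASE2 and CST7 had geometric means above those of untransfected cells with AML1-ETO siRNA by each method. For CTSG they were 1393 untransfected, 2998 by lipid and 5717 by nucleofection.

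The remaining 8 members did not pass. CHI3L1 was at 0.59, LYZ, lysozyme, at 0.49, the granule membrane protein CD63 at 0.35, MPO, myeloperoxidase, at 0.19, and PRTN3, proteinase 3, at 0.17. CTSC, the peptidase that activates granule proteases, was at 0.05, MMP9 at −0.25 and the defensin DEFA4 at −0.44. CHI3L1 lay near the floor of 20. With luciferase siRNA its geometric mean was 18.9 after lipid and 19.8 after nucleofection. With AML1-ETO siRNA these were 28.5 and 39.9, which raised the mean on which it passed the filter. Its differences under the other scalings are therefore given without a test. They were 0.65 with arrays centred on their medians and 0.67 with quantile normalization. PRG2, LTF, LCN2, CAMP, MMP8 and CRISP3, mostly contents of later granules, did not pass the filter on low signals.

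By nucleofection alone 5 of the 13 tested members rose, where 1.29% of all probe sets rose, with a median of 0.81. By lipid alone 2 rose, CTSG and CST7, where 0.06% of all rose, with a median of 0.09. With only the compared arrays fitted limma called 0 of all probe sets by lipid, so these 2 calls were lost. In the same control comparison in which SRGN was lower, luciferase nucleofection against untransfected cells, 7 of 13 fell, where 3.19% of all probe sets fell, with a median of −0.72 against −0.03 over all probe sets. In that comparison AZU1 fell by 2.39 (limma adjusted p = 0.000667), CTSG was at −1.73 (limma adjusted p = 0.00124) and PRTN3 at −1.19 (limma adjusted p = 0.00877), and CST7, ELANE, CD63 and CTSC lay between −1.09 and −0.72. DEFA4 was at 1.05, but it passed the filter on low signals only through the luciferase nucleofection arrays, and no test is given. With quantile normalization 5 of these 7 fell, and CTSC and CD63 did not pass. With arrays centred on their medians 9 of 13 fell, these 7 with LYZ and RNASE2. With only the compared arrays fitted limma called 0 of all probe sets, so all 7 calls were lost. This comparison and that of the siRNAs share the luciferase arrays.

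Nucleofection without siRNA gave 3 of 13 lower than untransfected cells, AZU1 at −2.09, CTSG at −1.38 and PRTN3 at −1.18 (limma adjusted p = 0.00618, 0.0179 and 0.0352), and 0 higher, from a single array, where 1.41% of all probe sets were lower. With only the compared arrays fitted limma called 0 of all probe sets there, so these calls were lost. Luciferase siRNA by lipid gave 0 of 13 called by limma in either direction, where 0.0075% of all probe sets were called. Of the 13, 0 had an unadjusted p below 0.05, and the median was −0.13. Between the luciferase groups 7 of 13 were higher by lipid than by nucleofection, where 6.46% of all probe sets were higher.

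**Figure D3:**
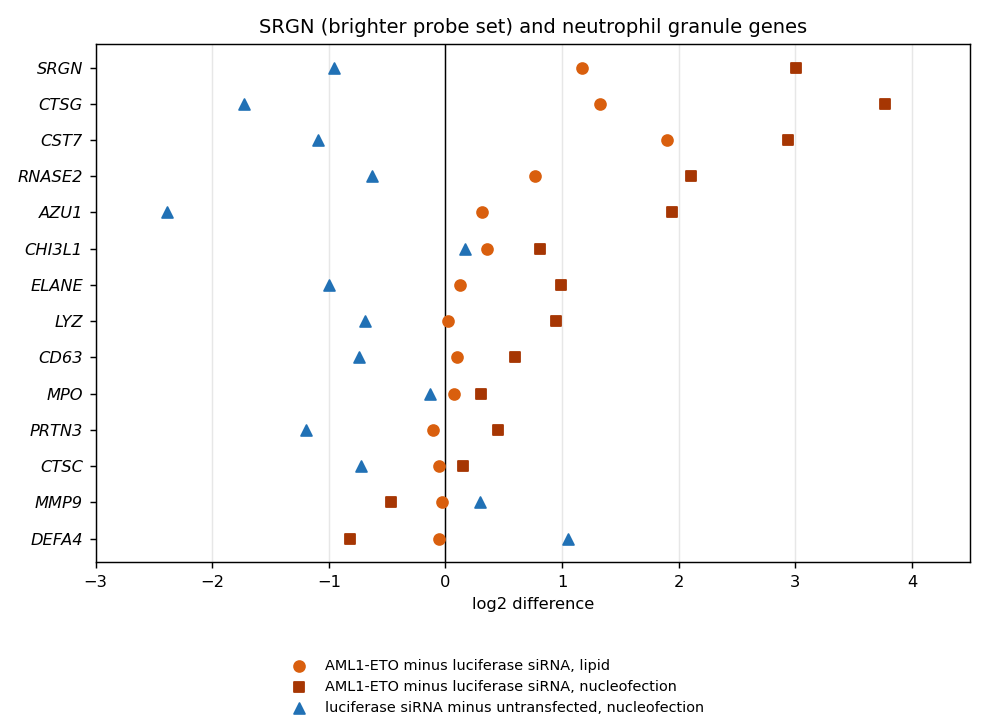
Log2 differences of SRGN and of the neutrophil granule genes that passed the filter, for AML1-ETO against luciferase siRNA by each method and for luciferase nucleofection against untransfected cells, with 1 point per gene and comparison. CTSG and CST7 lie far to the right by both methods, at 3.76 and 2.94 by nucleofection, while AZU1, CTSG and PRTN3 lie to the left for luciferase nucleofection.

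Listed granule contents of mast cells and cytotoxic lymphocytes were mostly too dim. Of 15 measured genes 4 passed the filter. One of them, NKG7, a membrane protein of cytotoxic granules, passed only through the AML1-ETO arrays, and no test or count is given for it. Its signal was at most 2.01 on all luciferase, untransfected and no siRNA arrays, 23.8 to 39.8 with AML1-ETO siRNA by lipid and 52.2 to 55.2 by nucleofection. With the floor at 20 the difference was at least 1.06 as the mean of both methods. The other 3 did not pass. Of 6 markers of T and NK cells that passed the filter, 0 rose, where 0.855% of all probe sets rose. CD5 passed it only through the luciferase nucleofection arrays, with geometric means of 61.4 there, 33.4 without siRNA and 10.1 to 14.5 in the other groups. It was at the floor on all lipid arrays, so its difference lay in nucleofection alone, at −1.45, and is given without a test. The summed signals of the 14 measured T and NK markers lay between 317 and 423 on every array, and CD3G, CD7, KLRF1 and TRAT1 were at the floor throughout.

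Markers of the other cells that are rich in serglycin did not pass the test. Of 4 tested mast cell and basophil markers, 7 platelet markers and 2 endothelial markers, limma called 0 as the mean of both methods. An unadjusted p below 0.05 was reached by 0. In this comparison 1.24% of all probe sets were called, so 0 calls among so few markers say little. Summed signals, with values under 20 raised to 20, were over all arrays 252 to 328 for the 9 measured mast cell and basophil markers, 265 to 374 for the platelet markers and 185 to 246 for the endothelial markers. FCER1A, PPBP, TUBB1, CDH5, KDR, CLDN5, TIE1 and EMCN lay at the floor on all arrays. The smallest p was that of GATA2 at −0.28, ITGA2B at −0.36 and ROBO4 at 0.19 in the respective lists.

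The genes that build and sulphate serglycin's chains did not pass the test for AML1-ETO siRNA. Of 22 genes of the linkage region and of chondroitin sulphate synthesis, 17 were measured and 10 tested. By limma 0 were called, where 1.24% of all probe sets were, and the median was −0.02 against −0.07 over all probe sets. An unadjusted p below 0.05 was reached by 4. For this and the other counts at an unadjusted p the share of all probe sets is not given. Such counts therefore do not show whether a list stands out. The smallest p was that of UST, the uronyl 2-O-sulphotransferase, at −0.59 (SE 0.15, limma adjusted p = 0.0809). The chain polymerase subunits CHSY1 and CHPF were at 0.03 and 0.11, and the chondroitin 4-O-sulphotransferase CHST11 at 0.13. The linkage enzymes B3GAT3 and B4GALT7 were at 0.09 and −0.40, the xylose kinase FAM20B at −0.44 and the 6-O-sulphotransferase CHST3 at −0.36. XYLT1 and XYLT2, which start the chain on the core protein, did not pass the filter on low signals.

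In the control comparison, UST and CHST3 rose with luciferase siRNA by nucleofection over untransfected cells, by 1.07 and 1.14 (limma adjusted p = 0.0264 and 0.0189). They were 2 of 10 tested members, where 1.69% of all probe sets rose. Both were dim, with geometric means of 19.2 and 14.4 in untransfected cells and 42.6 and 43.9 with luciferase siRNA by nucleofection. With only the compared arrays fitted limma called 0 of all probe sets, so these 2 calls were lost. SRGN lay lower in that comparison.

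Of 6 tested genes of heparan sulphate synthesis 0 were called by limma for AML1-ETO siRNA and 0 had an unadjusted p below 0.05, with a median of −0.14, and the smallest p was that of NDST1 at −0.49 (limma adjusted p = 0.448). Of 13 tested genes of sulphate donor and sugar nucleotide supply 0 were called and 2 had an unadjusted p below 0.05. The smallest p was that of UGDH, which makes UDP-glucuronic acid for the chains, at 0.67 (SE 0.15, limma adjusted p = 0.053). UGDH passed with either other scaling. Of 11 tested genes of glycosaminoglycan breakdown 0 were called by limma, with a median of 0.09, and 6 had an unadjusted p below 0.05. GALNS, a lysosomal sulphatase, had the smallest, at 0.69 (limma adjusted p = 0.175). In this comparison 1.24% of all probe sets were called, so 0 calls in lists this small say little.

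As the mean of both methods no other proteoglycan core passed the test for AML1-ETO siRNA. Of 34 listed cores 32 were measured and 21 tested, and limma called 0, where 1.24% of all probe sets were called. The cores had a median of −0.09, and 2 had an unadjusted p below 0.05. CSPG5, which had the smallest p, was at −0.37 and by nucleofection alone at −0.79. It passed the filter only through the luciferase nucleofection arrays, which both differences use, so no test of it is given. CD44, a surface receptor that can carry such chains and binds serglycin, was at 0.24 (limma adjusted p = 0.499), with geometric means of 295 and 313 by nucleofection and 265 and 348 by lipid. Of 22 tested genes of granule formation and release, 1 rose, LAMP2, a lysosome and granule membrane protein, by 0.59 (SE 0.11, limma adjusted p = 0.0152), where 0.855% of all probe sets rose, and the median was 0.08. By nucleofection alone 2 of 22 rose, LAMP2 by 0.76 and HPS1 by 0.83 (limma adjusted p = 0.0283 and 0.0436), where 1.29% of all rose. With luciferase siRNA by nucleofection LYST, LAMP2 and HPS1 were lower than in untransfected cells, at −1.64, −0.90 and −0.84, which is 3 of 22 where 3.19% of all probe sets fell. These calls too were lost with only the compared arrays fitted.

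**Figure D4:**
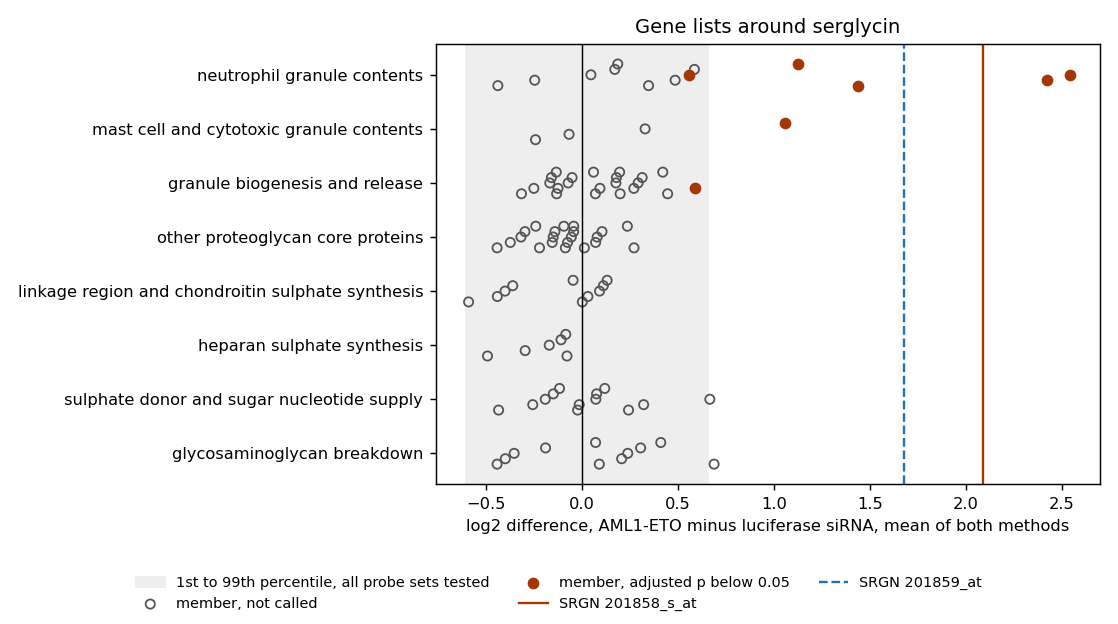
Log2 difference of AML1-ETO against luciferase siRNA, mean of both methods, for every tested member of each serglycin-related list, with 1 point per gene and called members marked. NKG7, the member marked in the mast cell and cytotoxic list, passed the filter only through the AML1-ETO arrays. The neutrophil granule list has 5 called members of 13 and a median of 0.49, while the chain synthesis and other proteoglycan lists have 0 called and medians from −0.14 to −0.01. Of all probe sets 1.24% were called.

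The genes whose pattern was most like that of 201858_s_at were found among 8129 genes by the root mean square difference of log2 signals over the 14 arrays, each centred on its own mean. The closest were CTSG at 0.35, RNASE2 at 0.39, CST7 at 0.43, SELPLG, the ligand of P-selectin, at 0.44 and LAPTM5, a lysosomal membrane protein, at 0.45. Then came TYROBP, a signalling adaptor, and IGFBP7, a secreted binding protein, at 0.47, PTPN22, a phosphatase of blood cells, and CEACAM6, an adhesion molecule, at 0.48, and AIF1, an actin-binding protein, at 0.53. The median over all genes was 1.11 and the gene next in rank, CD24, was at 0.54, so the list has no clear edge. The other SRGN probe set was at 0.32, nearer than any other gene. Ranked by Pearson's r instead, 6 of these 10 genes stayed among the first 10.

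The 10 genes shared with SRGN the high AML1-ETO arrays, except that the lipid arrays of PTPN22 overlapped. All but CEACAM6 and TYROBP also shared, less evenly, its low luciferase nucleofection arrays. The measure of likeness itself rewards both. The differences of the 10 genes among the controls are therefore given as a description, without a test. Luciferase nucleofection minus untransfected was −1.73 for CTSG, −1.12 for IGFBP7 and −1.09 for CST7, beside −0.96 for SRGN. The difference was −0.63 for RNASE2, −0.54 for SELPLG, −0.44 for LAPTM5, −0.28 for AIF1 and −0.23 for PTPN22, while CEACAM6 was at 0.05 and TYROBP at 0.21. That of PTPN22 came from untransfected replicate 1 alone, since the other arrays compared were at the floor.

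**Figure D5:**
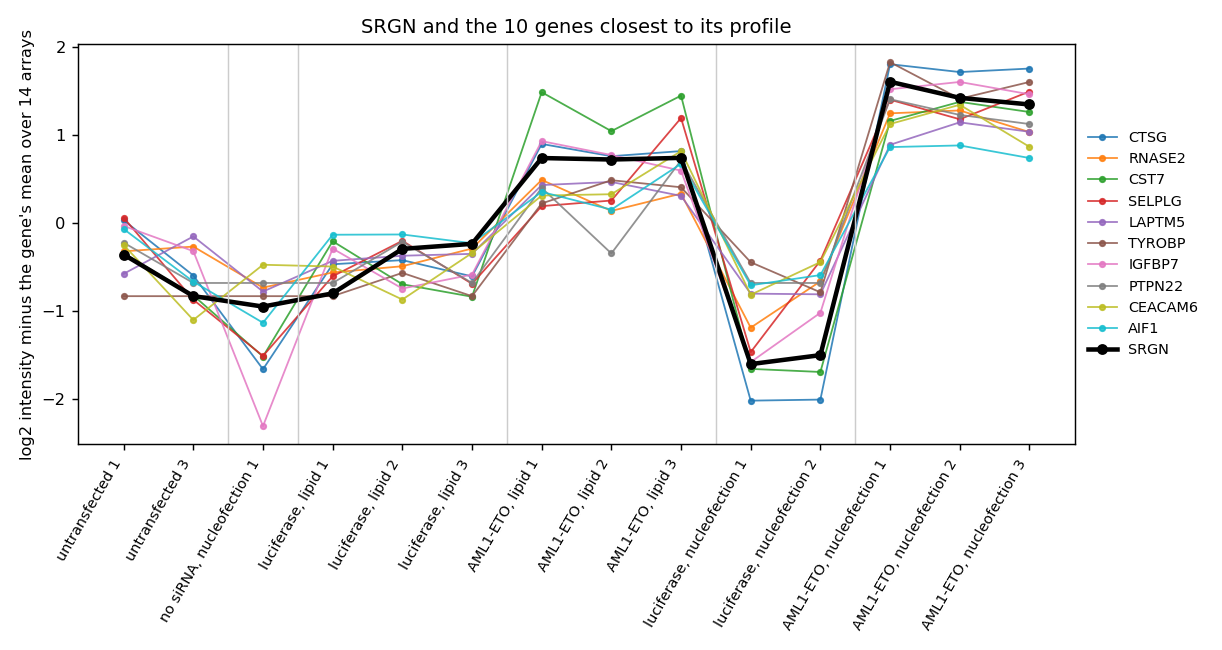
Log2 signal of SRGN 201858_s_at and of the 10 closest genes on each of the 14 arrays, each centred on its own mean over the arrays, with groups side by side. The lines, which only join the points of 1 gene, lie highest on the 3 AML1-ETO nucleofection arrays for every gene but CST7 and SELPLG. For CST7, AML1-ETO lipid replicates 1 and 3 lie above all nucleofection arrays. For SELPLG, AML1-ETO lipid replicate 3 lies above the lowest AML1-ETO nucleofection array. The lines fan out on the nucleofected control arrays, where CTSG is lowest with luciferase siRNA and IGFBP7 without siRNA.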

How the data were processed

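RNA of 14 Kasumi-1 samples was measured on single-colour oligonucleotide arrays. The authors deposited linear intensities. MAS5 had made them, per the submitters' processing notes, and its version is not given in the sources used here. Each array had been multiplied by 1 scale factor, per the labels, and the mean intensity was 138.5 on every array, so that a shift common to most genes cannot be seen. Replicates were not pooled.

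Of 22283 probe sets 68 were controls, and 19065 had 1 gene symbol in the platform annotation, 1043 several and 2107 none. Only single symbols were used, and updating them changed 0. Intensities under 20 were raised to 20, which touched 38.4% to 44.3% of the probe sets of an array, and log2 was taken, so that differences of dim genes are understated. The upper 60% of probe sets by mean, 13329, were tested with limma 3.58.1 in R 4.3.3 (lmFit and eBayes on 6 group means over 14 arrays, 8 residual and 5.05 prior degrees of freedom). Adjusted p-values are limma's, after Benjamini and Hochberg over all 13329, and calls are at adjusted p below 0.05. For SRGN, planned tests of the comparisons with luciferase arrays were run and are not reported, since those arrays entered the choice of the gene. A planned permutation test of the gap between the SRGN probe sets was run and is not reported, since the gap comes from the contrast that chose the gene. Both were left out after their values were seen. In data simulated for the AML1-ETO effect averaged over the methods, with 13329 probe sets, 15% of changes of 0.5 and 76% of changes of 1 were recovered.

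In the lists each gene was read from its brightest probe set. Named were both SRGN probe sets, the 10 closest profiles, every neutrophil granule gene, up to 6 called members of each other list by smallest p or, with none called, the member with the smallest p, and chain synthesis genes for their role. Genes named outside this rule, such as CD44 and those called only in control comparisons or under another scaling, were chosen after their values were seen. SRGN and the lists were chosen with earlier results of these data known. The alternatives changed the scaling, floor, filter, probe set per gene, variance model, arrays fitted, controls, replicate block and single arrays.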

Additional observations from a re-analysis of the deposited data

Results flagged for a closer look

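The rise of CTSG with AML1-ETO siRNA differed between the methods. It was 1.32 by lipid and 3.76 by nucleofection on the log2 scale, a difference of −2.44 (SE 0.24, limma adjusted p = 0.00239), and every AML1-ETO array was above every luciferase array of its method. The values of untransfected cells, 1731 and 1121, lay above those of luciferase nucleofection, 419 and 423.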

How the results depend on the processing

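SRGN was recomputed 501 times. Of these 474 kept direction and lay within 1 replicate SD of the reported value, or, for the tested comparison without siRNA, kept the side of the threshold, and 1 changed sign. That was luciferase lipid minus untransfected for 201858_s_at, at −0.085 without untransfected replicate 3. Many of the 501 runs could not move a difference. They left out an array of a group not compared, or changed only the filter, floor, variance model or arrays fitted. The count of 474 was thus in large part fixed in advance. With quantile normalization the difference between methods was −1.53 for 201858_s_at, luciferase nucleofection minus untransfected −0.73 and −0.97, and luciferase lipid minus nucleofection 0.89 and 0.76 for 201858_s_at and 201859_at. With untransfected cells and the array without siRNA in place of luciferase siRNA, AML1-ETO siRNA gave 1.86 and 1.26 as the mean of both methods, 2.40 and 1.97 by nucleofection, and −1.08 and −1.41 for the difference between methods.

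With the replicate number as a replicate block, luciferase nucleofection minus untransfected was −0.997 for 201858_s_at and −1.25 for 201859_at. The numbers did not pair the arrays: deviations of same-numbered arrays correlated at 0.037, −0.079 and 0.0614 (lipid) and −0.00192 and 0.0223 (nucleofection). The block took the count for AML1-ETO siRNA as the mean of both methods from 165 to 107 probe sets.

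Leaving out each array in turn gave, for 201858_s_at and 201859_at, −1.19 to −0.72 and −1.55 to −0.88 for luciferase nucleofection minus untransfected, and 1.00 to 1.28 and 0.68 to 1.35 for luciferase lipid minus nucleofection. Luciferase lipid minus untransfected was −0.085 to 0.39 for 201858_s_at. For 201859_at AML1-ETO minus luciferase siRNA by nucleofection was 2.26 to 2.93 and the difference between methods −2.18 to −1.50. For 201858_s_at AML1-ETO siRNA minus untransfected was 1.81 to 2.28 by nucleofection and 1.09 to 1.56 by lipid. Where a lone array remained in a group, it was assumed to vary like the others. The widening of the probe set gap was 0.42 within lipid, 0.41 within nucleofection and 0.32 to 0.48 without single arrays.

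With arrays centred on their medians, proteoglycan cores called for luciferase nucleofection minus untransfected went from 1 to 2 (GPC4 and CD74), breakdown genes from 1 (HYAL3) to 2 (with HEXA) and granule formation genes from 3 to 5 (with VAMP8 and BLOC1S1). That scaling moved the median of all probe sets there from −0.03 to −0.22. With quantile normalization breakdown genes went to 0. For AML1-ETO siRNA 1 gene of sugar nucleotide supply, UGDH, was called under either scaling against 0, and with centred medians 2 granule formation genes, HPS1 and LAMP2, against 1. Among all probe sets called for that comparison 69.1% were higher, against 87.8% with centred medians and 80.2% with quantile normalization. By nucleofection it was 61.4% against 84.0%.

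Over all alternatives the called probe sets ranged from 98 to 267 for AML1-ETO siRNA as the mean of both methods, 38 to 522 by nucleofection, 0 to 17 by lipid and 1 to 59 for the difference between methods. They ranged from 0 to 1395 for luciferase nucleofection minus untransfected, 0 to 3 by lipid, 296 to 1548 for luciferase lipid minus nucleofection and 0 to 616 without siRNA. The number of arrays, 2 to 3 per group and 1 without siRNA, limits all of these.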

Other observations

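The genes next to SRGN on its chromosome, taken in the order of RefSeq's GRCh38.p14 annotation, were looked up after the other values had been seen. The nearest measured genes were DDX50, DDX21 and KIFBP on one side and VPS26A, SUPV3L1, HKDC1, HK1 and TACR2 on the other. HKDC1 and TACR2 did not pass the filter on low signals. Averaged over the methods, the AML1-ETO siRNA effect was called by limma in 0 of the 6 tested, where 1.24% of all probe sets were called. DDX21, an RNA helicase, was at −0.52 on the log2 scale (limma adjusted p = 0.0827), HK1, a hexokinase, at −0.46 (limma adjusted p = 0.185) and KIFBP at −0.29, while DDX50 at −0.06, VPS26A at 0.02 and SUPV3L1 at 0.10 were near 0.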
